A study of Arabidopsis thaliana with 2 samples.

Results

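The genes described are 8 components of the circadian clock of Arabidopsis thaliana, chosen by name and each read by 1 probe set of the Affymetrix ATH1 array: CCA1 (266719_at, AT2G46830), LHY (261569_at, AT1G01060), PRR9 (266720_s_at, AT2G46790), PRR7 (250971_at, AT5G02810), PRR5 (249741_at, AT5G24470), TOC1 (247525_at, AT5G61380), GI (264211_at, AT1G22770) and ELF4 (267364_at, AT2G40080). They are 8 of 22746 plant probe sets and were chosen with earlier results of these data known. The gene of each probe set was taken from the selection itself. The platform annotation used here lists 1 of the 8, 264211_at, under the same name, GI, and does not list the other 7.

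The series holds 1 sample of Col-0 seedlings given 200 µM cadmium, a heavy metal that is toxic to plants, and 1 untreated sample of Col-0 seedlings. Both samples were whole seedlings, 7 days of age, raised at 28 °C on quarter-strength MS medium under 16 h of light and 8 h of darkness. The exposure is given as 6 h in the series text and protocol and as 4 h in the labels of the cadmium sample. No label gives the time of day at which either sample was harvested. Each sample was measured on 1 array, so the values have no replicate error, no test was possible and every difference below is a description of these arrays. RNA came from whole seedlings, so fewer cells of a type and less RNA per cell cannot be told apart.

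The plant clock is a set of interlocked loops of transcriptional repressors. CCA1 and LHY, related MYB-type transcription factors, accumulate around dawn and repress genes of the evening. The pseudo-response regulators are expressed one after another through the day, PRR9 first, then PRR7 and PRR5, then TOC1 around dusk, and they repress CCA1 and LHY. GI and ELF4 are also genes of the later day and evening. As transcripts of the morning and of the evening peak at different times, they are used to ask whether samples were collected at like times of day. CCA1, LHY, PRR9 and PRR7 are called the morning class here, and PRR5, TOC1, GI and ELF4 the evening class. PRR7 and PRR5 follow one another in the day, so the classes are not opposite in phase throughout.

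All values are log2 RMA values. RMA (robust multi-array average) summarises the probes of a probe set into 1 value per array. The values of the plant probe sets ran from 3.28 to 13.64 on the cadmium array (median 6.22) and from 3.27 to 13.60 on the control array (median 6.19). The 27 Bacillus and trpn control probe sets, which match no plant transcript, ran from 3.56 to 4.98 on the cadmium array and from 3.52 to 4.95 on the control array. Probe sets differ in how strongly they respond to their transcript, so levels are not compared between genes, and a percentile below says only where a value lay among the plant probe sets of its array. Of the markers chosen for the organs of a seedling, 3 of 7 shoot markers and 2 of 6 root markers could be paired with a probe set, and all 5 lay above the range of the Bacillus and trpn controls on both arrays. The photosynthetic genes RCA, PRK and SBPASE differed by -0.056 to 0.11, and their values lay at or above percentile 95.96. Of the root genes, PYK10 was measured at 12.49 on the cadmium array and 12.22 on the control array, and EXPA7, an expansin of root hair cells, at 6.08 on the cadmium array and 6.74 on the control array. The part of this EXPA7 difference of -0.67 in the clock gene values was not tested.

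As deposited, none of the 8 clock genes differed by 1.5-fold or more (0.58 on the log2 scale). Their differences ran from -0.30 for PRR7 to 0.38 for LHY. Among all plant probe sets 3.95% differed by at least 1.5-fold and 1.05% by at least 2-fold, so a count of 0 among 8 lies close to this background. Of the 8 genes, 4 were higher and 4 were lower on the cadmium array, but the signs of CCA1, PRR9, PRR5 and TOC1 changed under at least 1 of 5 other settings. Apart from CCA1, which was also at -0.0002 with a smooth curve subtracted, these signs changed only where a constant was added to the difference of every probe set. Their median absolute difference was 0.15, against 0.13 over all plant probe sets, and their median difference was 0.010, against 0.022. These 8 include CCA1 and PRR9, which lay within the range of the Bacillus and trpn controls. For the 6 genes above that range the median absolute difference was 0.18. With plant probe sets split into 4 equal groups by mean level, it was 0.095 in the lowest group and 0.14 to 0.15 in the others.

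**Figure D1:**
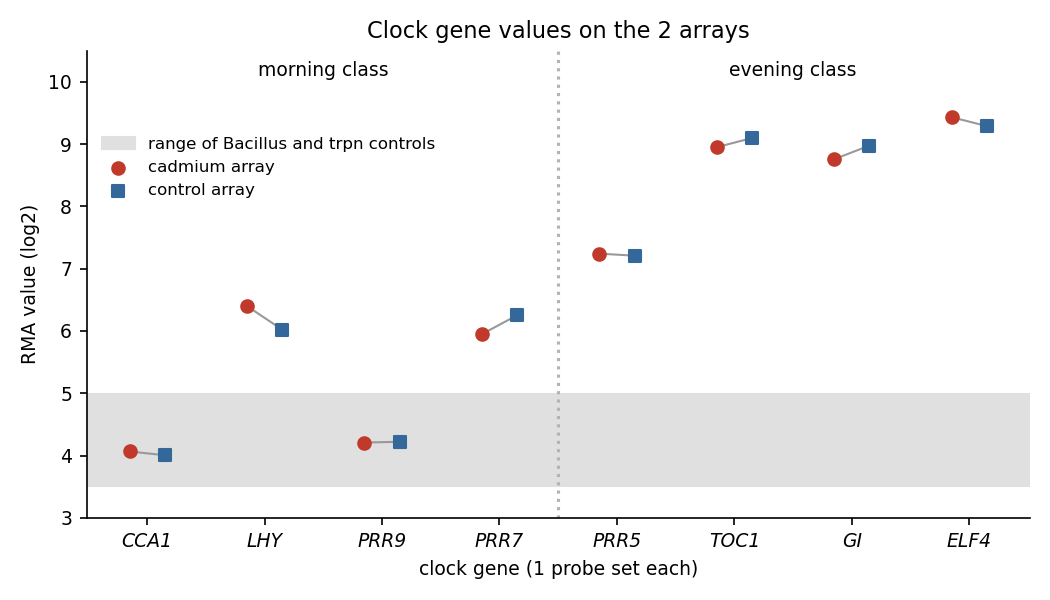
Log2 RMA value of each clock gene on the cadmium array (red circles) and the control array (blue squares), 1 probe set per gene, with the range of the 27 Bacillus and trpn control probe sets in grey. CCA1 and PRR9 lie within the grey range on both arrays, and the other 6 genes lie above it.

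Of the dawn genes, only LHY was measured above the range of the Bacillus and trpn controls. LHY was measured at 6.40 on the cadmium array and 6.02 on the control array, which was 1.30-fold higher with cadmium and the widest difference of the 8 genes. LHY reached 0.60, past 1.5-fold, when the arrays were scaled to the hybridization controls, bacterial and phage transcripts added to the labelled RNA, which raised the median of all plant probe sets to 0.24. The mean differences of these controls ran from -0.28 for bioC to -0.073 for cre, and scaling to each control alone was not tested. As deposited, a difference of at least the size of that of LHY was measured for 10.3% of all plant probe sets. Within its group, 1 of 4 equal groups formed by mean level, the share was 13.9%. LHY lay near the lower edge of that group, so most of its members had higher levels. CCA1, the close relative and partner of LHY, was measured at 4.07 on the cadmium array and 4.01 on the control array, a difference of 0.061. Both CCA1 values, at percentile 7.93 on the cadmium array and 8.10 on the control array, lay within the range of the Bacillus and trpn controls. The CCA1 difference therefore cannot be set against that of LHY as a measure of the transcript.

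Of the morning and midday pseudo-response regulators, PRR7 differed in the direction opposite to LHY, and PRR9 was not measured above the range of the Bacillus and trpn controls. PRR7, a repressor of CCA1 and LHY, was measured at 5.95 on the cadmium array and 6.25 on the control array, 1.23-fold lower with cadmium. This was the most negative difference of the 8, and 16.2% of plant probe sets differed by at least as much in either direction. LHY (dawn) and PRR7 (later in the day), both of the morning class, thus lay 0.68 apart on the log2 scale, in opposite directions. PRR9, the earliest of the family in the day, was measured at 4.21 on the cadmium array and 4.22 on the control array, a difference of -0.012. These values give no direction for the transcript, and the identifier ending in _s_at marks a probe set that may match more than 1 transcript.

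In the evening class all 4 genes lay above the range of the Bacillus and trpn controls on both arrays. PRR5, which acts in the afternoon, was measured at 7.24 on the cadmium array and 7.21 on the control array, a difference of 0.033. TOC1, the pseudo-response regulator of the evening, was measured at 8.95 on the cadmium array and 9.10 on the control array, 1.11-fold lower with cadmium, though 0.070 higher on the log2 scale under scaling to the hybridization controls. Both genes encode proteins that are marked for degradation by the F-box protein ZTL, a step that RNA levels do not show.

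GI, a large protein that stabilises ZTL in blue light and promotes flowering in long days, was measured at 8.76 on the cadmium array and 8.98 on the control array, 1.16-fold lower with cadmium. ELF4, a subunit of the evening complex with ELF3 and LUX, was measured at 9.43 on the cadmium array and 9.29 on the control array, 1.11-fold higher with cadmium. As deposited, ELF4 was thus higher and GI lower on the cadmium array. GI was at -0.0013 under scaling to the hybridization controls, and ELF4 at 0.045 under scaling to actin, GAPDH and ubiquitin, so neither difference held its size under these shifts of the scale. The distance of 0.36 between them is the same under any such shift. A difference of at least the size of that of GI was measured for 28.3% of plant probe sets, of that of ELF4 for 46.0% and of that of TOC1 for 45.1%.

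**Figure D2:**
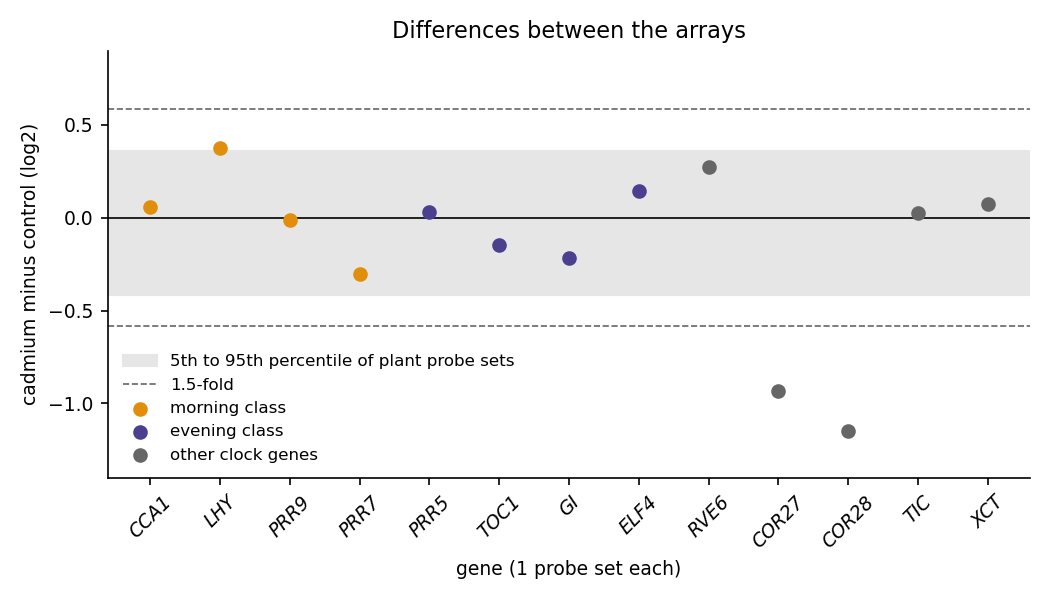
Difference of cadmium minus control (log2) for the 8 clock genes, by class, and for 5 other clock genes, with the 5th to 95th percentile of all plant probe sets in grey (-0.42 to 0.36) and dashed lines at 1.5-fold. Of the 8 clock genes 7 lie inside the grey band and LHY lies just above it, while COR27 and COR28 lie below the lower dashed line.

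Set against each other, the morning class had a median difference of 0.024 and the evening class one of -0.057. The gap between the class medians was 0.081. The morning median is the midpoint of CCA1 and PRR9, which both lay within the range of the Bacillus and trpn controls, so it is no measure of those transcripts. Without these genes, a setting chosen after seeing the data, the morning class is LHY and PRR7 alone, which differed in opposite directions and have a median of 0.037. As deposited, each class held 2 genes that were higher and 2 that were lower on the cadmium array. Of these signs, those of CCA1 and PRR9 give no direction for the transcripts, and those of PRR5 and TOC1 changed under another setting. The range of the morning class, -0.30 to 0.38, enclosed that of the evening class, -0.22 to 0.14. With 1 array per group, no replicate error exists to judge the gap by.

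The gap depended on which genes stood for the morning. With the dawn genes CCA1 and LHY alone, the median difference was 0.22, against -0.15 for TOC1, GI and ELF4, and the gap was 0.37. CCA1, within the range of the Bacillus and trpn controls, is 1 of the 2 genes behind this dawn value. With a smooth curve (lowess) of all plant probe sets subtracted, the gap over all 8 genes was -0.039, of the opposite sign. There too the morning median is the midpoint of CCA1 (-0.0002) and PRR9 (-0.084), both within the range of the Bacillus and trpn controls. The change of sign is therefore no measure of those transcripts. The 6 genes above the range of the Bacillus and trpn controls had a median difference of -0.057, with 3 higher and 3 lower.

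**Figure D3:**
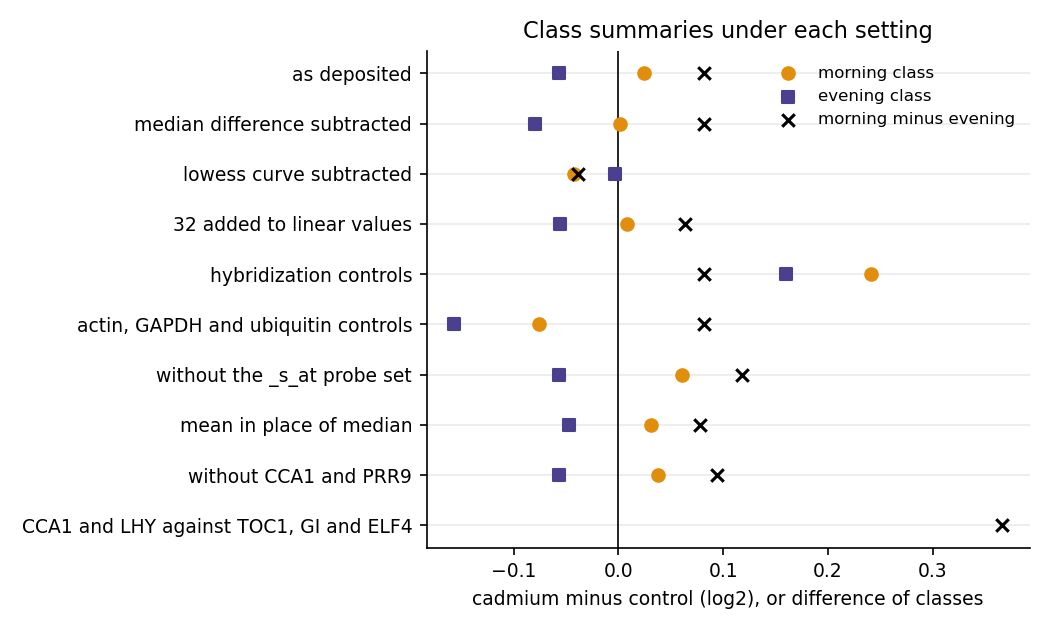
Median difference (cadmium minus control, log2) of the morning class and the evening class, and the gap between them, under each setting. The gap is 0.081 as deposited, -0.039 with the lowess curve subtracted and 0.37 for CCA1 and LHY against TOC1, GI and ELF4. As deposited and under each of the 5 scaling, lowess and added-value settings, the morning median rests on CCA1 and PRR9. Both lay within the range of the Bacillus and trpn controls.

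Of 25 other clock genes on a list, 5 could be paired with a probe set of their own, and 2 of these differed by at least 1.5-fold, both lower on the cadmium array. Among all plant probe sets, 2.49% were at least 1.5-fold lower and 0.624% at least 2-fold lower. The list was chosen with earlier results of these data known, so the count of 2 is a description only. COR27, a cold-regulated repressor that acts on clock genes including PRR5 and TOC1, was measured at 8.38 on the cadmium array and 9.31 on the control array, 1.91-fold lower with cadmium. Its homologue AT4G33980, known as COR28, was measured at 6.74 on the cadmium array and 7.89 on the control array, 2.21-fold lower with cadmium. Its difference of -1.15 was -0.93 under scaling to the hybridization controls and -0.95 with 32 added to the linear values, both short of 2-fold. The pair differed in the same direction, and 1.28% of plant probe sets differed by at least as much as COR27 in either direction and 0.721% by at least as much as COR28.

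The remaining 3 measured genes of that list differed by less than 1.5-fold. AT5G52660, known as RVE6 and a relative of the evening gene activator RVE8, was measured at 7.17 on the cadmium array and 6.90 on the control array. TIC, a nuclear regulator of the clock, differed by 0.025, and XCT, a conserved nuclear protein that affects period length, by 0.075. Of 14 genes controlled by the clock, only AT1G69570, known as CDF5 and a repressor of the flowering gene CO, could be paired with a probe set. It was measured at 5.56 on the cadmium array and 5.31 on the control array, a difference of 0.25. The other 20 clock genes and 13 output genes were not analysed here, so the 5 pairs are no summary of the clock as a whole.

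**Figure D4:**
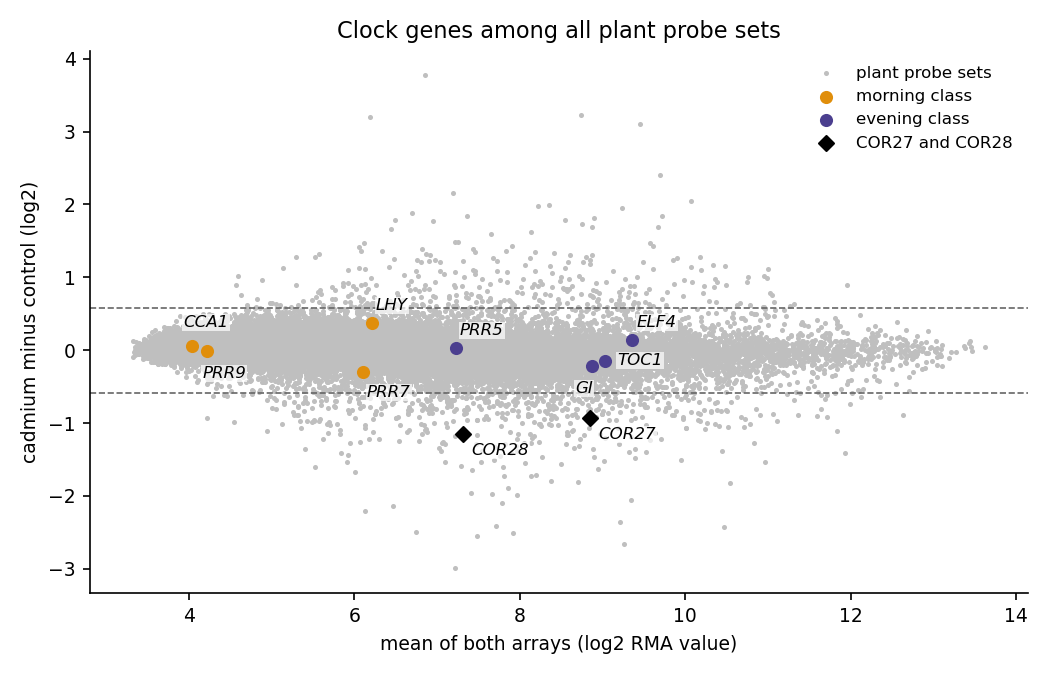
Difference of cadmium minus control (log2) against the mean of both arrays for all 22746 plant probe sets (grey), with the 8 clock genes, COR27 and COR28 marked and dashed lines at 1.5-fold. The 8 clock genes lie inside the cloud between the dashed lines at every level, and COR27 and COR28 lie below the lower line, at mean levels of 8.85 and 7.32.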

How the data were processed

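The authors deposited 1 log2 value per probe set and array. RMA and the R package affy were used, per the submitters' processing notes. Their versions and options, and which arrays were normalized together, are not stated. RMA commonly includes quantile normalization, which would hide a shift of most transcripts. The files hold no detection call, and precision is limited by there being 1 array per group.

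The difference of each probe set was the cadmium value minus the control value, without filter or pseudocount. No test was made, with 1 array per group. Of the plant probe sets, 13513 were listed with 1 gene, 503 with several and 8730 were not listed; 13436 of the 13513 matched RefSeq (TAIR10.1) by gene ID. Only probe sets with 1 gene were named, apart from the 8 members. All members were named, and all measured genes of the other lists. Members and lists were chosen with earlier results of these data known. The planned search of promoters for clock motifs was not run, as no sequences were given. Counting was tested on simulated data. Alternatives were subtraction of the median difference or of a lowess curve (fraction 0.3), 32 added to linear values, and scaling to control probe sets. Python 3.11.15, numpy 2.4.6, pandas 2.3.3, statsmodels 0.14.6 and matplotlib 3.10.9 were used.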

Additional observations from a re-analysis of the deposited data

How the results depend on the processing

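A class median counted as moved where it shifted by more than 0.088. This is the SD of the cadmium minus control differences of the 16 actin, GAPDH and ubiquitin probe sets. It is a spread among probe sets of 1 pair of arrays and does not measure error between replicate arrays. Scaled to the hybridization controls bioB, bioC, bioD and cre, the median over all plant probe sets was 0.24, the morning class median 0.24, the evening class median 0.16, and 1 clock gene, LHY at 0.60, passed 1.5-fold, where 5.99% of plant probe sets did. Scaled to actin, GAPDH and ubiquitin, the class medians were -0.0755 for the morning and -0.16 for the evening. In both cases the morning median is the midpoint of CCA1 and PRR9, within the range of the Bacillus and trpn controls. It is no measure of those transcripts. The gap between the classes was -0.039 with the lowess curve subtracted and 0.37 for CCA1 and LHY against TOC1, GI and ELF4. LHY, PRR7, GI and ELF4 kept their sign under each of the 5 scaling, lowess and added-value settings, while CCA1, PRR9, PRR5 and TOC1 changed sign under at least 1. GI was at -0.0013 with the hybridization controls. COR27 ran from -1.03 to -0.72 and COR28 from -1.25 to -0.93 over the same settings, added for these genes after seeing the data, so COR28 was not 2-fold lower under all of them. No paired analysis was possible because there is 1 array per group, and no array could be left out.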

Other observations

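A further list of 16 clock-associated genes was drawn up after the values above had been seen, and 4 of them could be paired with a probe set. None differed by 1.5-fold, and their differences ran from -0.26 to 0.35. AT4G01280, known as RVE5 and of the same MYB-like family as RVE6, was measured at 6.33 on the cadmium array and 5.98 on the control array, a difference of 0.35. LIP1, a small GTPase of the light input to the clock, was measured at 7.00 on the cadmium array and 7.26 on the control array. FIO1, which affects the period length of the clock, differed by 0.12, and AT2G16365, known as PCH1 and a partner of phytochrome B, by -0.18. Of 12 light-signalling genes and 9 genes of starch metabolism added in the same way, 0 could be paired with a probe set.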
